A study of Mus musculus with 150 samples.

Results

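DBA/2J and C57BL/6J are the inbred parents of the BXD strains, recombinant inbred mouse lines that are each fixed for their own mosaic of the 2 parental genomes. Liver RNA was compared between the 6 parent mice labelled female, 3 of each strain, chosen by their strain and sex labels out of 150 sequenced columns. The C57BL/6J mice were 544 days old on a high-fat diet (HF), 537 days old on chow (CD) and 182 days old on HF. The DBA/2J mice were 764 days old on CD, 549 days old on HF and 212 days old on CD. A parental difference was then followed into 125 mice of 36 BXD strains, 157 to 756 days old, 64 on CD and 61 on HF, and into 10 F1 hybrids, all labelled female. The hybrids were 6 B6D2F1 mice (640 and 552 days on CD, a pair at 547 days on HF, and 216 days on CD and on HF) and 4 D2B6F1 mice (545 days CD, 540 days HF, 214 days HF and 210 days CD). All came from 1 ageing colony, and the livers were perfused and frozen before polyA RNA was sequenced. The labels give each column its own ear tag, though 7 columns repeat the values of another, so that the replicates are separate mice rests on the labels. No 2 mice of a parent strain share both age and diet.

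A gene that differs between 2 inbred parents can differ because of a variant at or near the gene itself, or because of a regulator elsewhere in the genome. A variant close to the gene is inherited with it, so its level in recombinant strains falls near one parent or the other. An F1 hybrid carries 1 copy of each parental genome, and genes with a local variant often lie between the parents in it. DBA/2J is a classical strain known for the absence of complement C5 and for duplications that hold Alad and Glo1, and C57BL/6J is known for a deletion in Nnt.

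Levels are given as FPKM, fragments per kilobase of transcript and per fixed number of fragments sequenced, rescaled so that the median gene has the same level in every library. Tests used log2(rescaled FPKM + 1), a scale that understates the change of low genes. The 6 parent libraries had between 20490432 and 29551018 input reads. The 14 hepatocyte markers were detected in every parent liver, and their summed level was 45490 to 63400 FPKM in C57BL/6J and 63970 to 108400 FPKM in DBA/2J. The 15 Kupffer cell markers summed to 541 to 667 FPKM in C57BL/6J and 394 to 1378 FPKM in DBA/2J, and the 12 pancreas markers to 13.0 to 157 FPKM and 26.4 to 635 FPKM. No gene of the Kupffer cell, pancreas, cholangiocyte, neutrophil, lymphocyte or erythroid lists passed the parent test. Of the 14 hepatocyte markers 2 were higher in DBA/2J, and of 12 stellate and 12 endothelial cell markers 2 and 1 were lower. These shares, 14.29%, 16.67% and 8.33%, lay below the 17.0% of all genes tested. The cholangiocyte markers summed to 23.6 to 47.3 FPKM in C57BL/6J and 13.4 to 21.4 FPKM in DBA/2J. No marker list had a gene at 0 in all 6 parent mice. In bulk liver, fewer cells of a type and less RNA per cell cannot be told apart.

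Several libraries stood apart. Of the 150 columns, 7 held exactly the values of another column and were dropped, among them a column labelled as a 212-day HF DBA/2J female that repeats the C57BL/6J male and one labelled BXD87 that repeats the 212-day CD DBA/2J female. In each such pair the column kept was the one whose values give the mapped read number in its own header. A 201-day CD mouse labelled BXD34 female had Ddx3y, a Y-linked gene, at 18.1 FPKM and Xist at 0.0634 FPKM. On the 89 genes with a clear split described below it lay on the same side as the DBA/2J mice for 94.4% to 96.6% of the genes, but with the other BXD34 mice for only 61.8% to 64.0%. Those 3 BXD34 mice lay on the same side as their closest BXD68 mouse for 97.8% to 98.9% of the genes, and both names count among the strains below. Without 6 BXD libraries (all 4 labelled BXD34 and 1 each labelled BXD9 and BXD100), 2305 genes passed the parent test and 94 had a clear split. The 640-day and 552-day B6D2F1 libraries correlated at 0.995 with each other across genes and had the highest summed Kupffer cell markers of the F1 mice, up to 10170 FPKM. Their part in the F1 results was not tested beyond leaving them out.

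In the parent comparison 2252 of 13256 genes passed limma's moderated test at an adjusted p under 0.05, which is 17.0% of the genes tested. Of these, 1031 (7.78%) were higher and 1221 (9.21%) lower in DBA/2J. Without rescaling it was 439 higher and 2407 lower, and rescaling moved the median difference of all genes from -0.20 to 0.01. The difference was at least 1 on the log2 scale for 668 genes (5.04%), 356 higher and 312 lower in DBA/2J. The values of the 3 DBA/2J and the 3 C57BL/6J mice did not overlap for 2092 of the 2252 genes, against 38.0% of all genes tested. The genes were called on these same mice, so the high number largely follows from the call. With 1 parent mouse left out the count was 808 without the 544-day and 603 without the 537-day C57BL/6J mouse, and 615 without the 549-day and 3898 without the 212-day DBA/2J mouse. With sequencing flow cell as a term it was 782. Across the 13166 genes with a known transcript length, the log2 difference fell with length (Spearman -0.486, genes are not independent replicates). For each library a length slope was computed, the change of its log2 level relative to the mean of all mice per doubling of transcript length. It was 0.0506 to 0.0598 in the C57BL/6J mice, and -0.0972, -0.149 and -0.0292 in the 764-day, 549-day and 212-day DBA/2J mice, so the 2 strains did not overlap. BXD mice ranged from -0.261 to 0.0932. With the slope as a covariate in the model, an alternative chosen after seeing the data, 458 genes passed (3.46%), 241 (1.82%) higher and 217 (1.64%) lower in DBA/2J, and 373 of them were among the 2252. Which share of the length trend comes from the strains and which from the RNA or the libraries cannot be told apart with 3 mice of each strain.

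With the genes ordered by transcript length and divided into 10 equal bins, the median difference ran from 0.49 on the log2 scale in the bin of median length 1111 bases to -0.50 in the bin of median length 7411 bases. With the covariate these medians were -0.03 and -0.09. One male of each parent strain was also sequenced, and between these 2 mice the same bins differed by -0.54 and 0.42, the opposite way. The C57BL/6J male was 361 days old on CD and the DBA/2J male 544 days old on HF. The plot of the parent difference by transcript length shows the crossing lines. The reads of the DBA/2J mice also differed more from the C57BL/6J reference genome, with mismatch rates of 0.39% to 0.59% against 0.29% to 0.36%, and uniquely mapped shares of 80.07%, 80.29% and 89.58% against 87.2% to 87.94%. The part of these in the differences was not tested. Values below are therefore given with the adjusted p under the covariate where it changes a call.

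**Figure D1:**
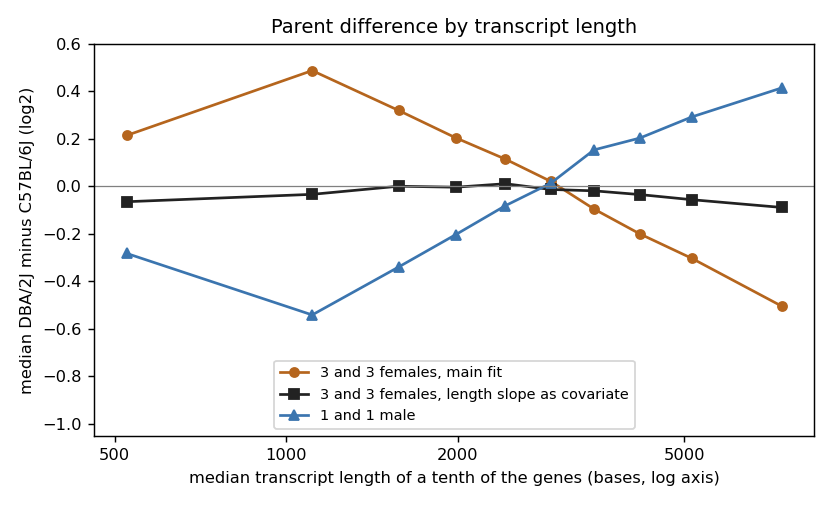
Median DBA/2J minus C57BL/6J difference (log2, vertical axis) in 10 equal bins of the genes ordered by transcript length (bases, log axis): circles for the 3 and 3 females, squares for the same mice with the length slope as covariate, triangles for the 1 and 1 male. The females fall from 0.49 in the bin of 1111 bases to -0.50 in the longest, the males rise from -0.54 to 0.42, and the covariate line stays between -0.09 and 0.01.

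The genes with the largest rises in DBA/2J included enzymes of drug, steroid and lipid metabolism. Cyp2c39, a cytochrome P450 of the CYP2C family (chromosome 19, 39510862 to 39568529, GRCm38), was at 3.10, 5.45 and 4.29 FPKM in the 544-day, 537-day and 182-day C57BL/6J mice and at 121, 180 and 142 FPKM in the 764-day, 549-day and 212-day DBA/2J mice. The strains were far apart and did not overlap, a difference of 4.84 on the log2 scale (SE 0.40, adjusted p = 5.06e-18). The sulfotransferase genes Sult3a1, Sult2a6 and Sult2a4, which attach sulfate to steroids, bile acids and foreign compounds, rose by 6.50 (SE 0.90), 4.58 (SE 0.57) and 3.57 (SE 0.57) on the log2 scale. Sult3a1 was at 2.37, 11.1 and 8.05 FPKM in C57BL/6J and at 336, 1157 and 692 FPKM in DBA/2J, without overlap. These families have near-identical copies between which reads can be shared, so the levels of single members are uncertain. In the males Sult3a1 was low in both strains, at 7.30 FPKM in C57BL/6J and 1.51 FPKM in DBA/2J. Sult2a6 and Sult2a4 were at 0 FPKM in the C57BL/6J male, and at 0.0547 and 0.0538 FPKM in the DBA/2J male. Ces1b, a liver carboxylesterase (chromosome 8, 93056727 to 93080017), was at 25.4, 30.1 and 36.6 FPKM in C57BL/6J and 411, 344 and 375 FPKM in DBA/2J, higher by 3.63 (SE 0.38, adjusted p = 6.66e-13). Tpmt, thiopurine methyltransferase, which inactivates thiopurine drugs, was 10.1 ± 0.645 FPKM (SD, n = 3) in C57BL/6J and 62.7 ± 21.0 FPKM in DBA/2J, higher by 2.48 (SE 0.29, adjusted p = 1.77e-10). Tpmt was named after its values were seen.

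Other large rises included a protease, an enolase copy and a spliceosome gene. Ctse, the aspartic protease cathepsin E (chromosome 1, 131638306 to 131675505), was at 0.584, 0.331 and 0.405 FPKM in C57BL/6J and 18.3, 34.0 and 14.9 FPKM in DBA/2J, a rise of 4.10 (SE 0.47, adjusted p = 5.15e-11). Eno1b, a near-identical copy of the enolase gene Eno1, rose by 4.06 (SE 0.31), from 1.11 to 1.72 FPKM up to 21.9 to 64.1 FPKM. Snrnp25, a protein of the minor spliceosome, rose by 3.40 (SE 0.45), from 1.93 to 2.98 FPKM up to 27.7 to 51.3 FPKM. Hist1h2bk, a histone gene, Selenbp2, a selenium-binding protein, and H2-Q2, a class Ib histocompatibility gene, rose by 3.59, 3.40 and 3.49. Hamp2, a copy of the hepcidin gene, differed by 6.30 (SE 1.76, adjusted p = 0.0113), from 14.4, 131 and 255 FPKM in C57BL/6J to 13922, 1427 and 9858 FPKM in DBA/2J. Its adjusted p was 0.106 with the length slope as covariate, 0.0626 without the 544-day C57BL/6J mouse and 0.0633 without the 764-day DBA/2J mouse.

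The largest falls in DBA/2J included P450, complement and oxidase genes. Hc encodes complement C5 (chromosome 2, 34983331 to 35061438), and DBA/2J carries a frameshift deletion in it. It was at 116, 172 and 147 FPKM in C57BL/6J and at 14.6, 15.4 and 21.0 FPKM in DBA/2J, lower by 2.96 on the log2 scale (SE 0.37, adjusted p = 9.10e-10). Aox3, an aldehyde oxidase (chromosome 1, 58113136 to 58200698), was at 52.0, 45.1 and 47.0 FPKM against 3.98, 3.57 and 6.29 FPKM, a change of -3.01 (SE 0.46, adjusted p = 6.78e-07). For both genes every DBA/2J mouse was below every C57BL/6J mouse. Cyp2a22 and Cyp3a13, also P450 genes, changed by -3.71 (SE 0.83) and -2.63 (SE 0.36). Mug2, a murinoglobulin that inhibits proteases in plasma, changed by -2.83 (SE 0.53), Cebpe, a transcription factor best known in granulocytes, by -2.82 (SE 0.45), and Ildr2 by -3.16 (SE 0.39). Folr2, a folate receptor of macrophages, was at 10.8, 15.3 and 23.5 FPKM in C57BL/6J and 0.466, 1.55 and 0.874 FPKM in DBA/2J, a change of -3.23 (SE 0.62, adjusted p = 7.82e-05). The summed Kupffer cell markers of the DBA/2J mice, 394 to 1378 FPKM, spanned the C57BL/6J range. The median difference of the 15 markers was -0.14, and -0.53 with the length slope as covariate, and their part in the Folr2 difference was not tested. Apol7d, AC125167.1 and Mir5114 completed the 12 largest falls with mt-Tg, and they had adjusted p of 0.420, 0.454 and 0.342 with the length slope as covariate. Each of these 3 also missed the threshold without the 549-day DBA/2J mouse, with adjusted p of 0.116, 0.0909 and 0.168.

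**Figure D2:**
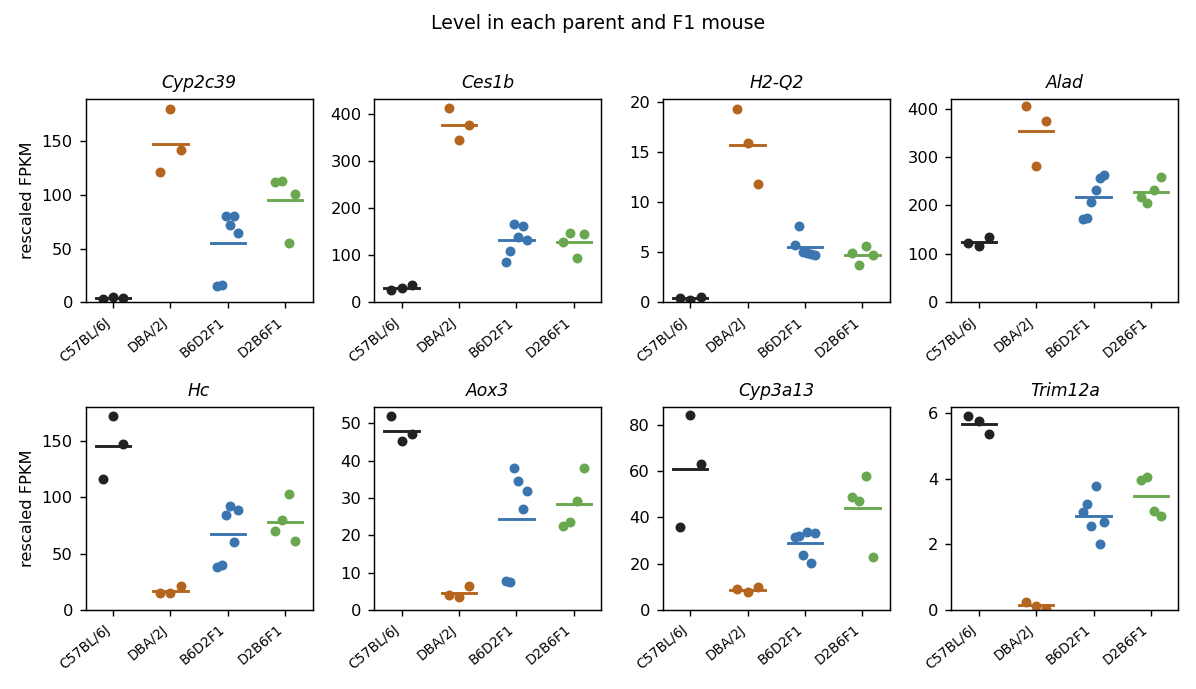
Rescaled FPKM of 8 genes (vertical axis, from 0) in each C57BL/6J, DBA/2J, B6D2F1 and D2B6F1 mouse (points), with group means as lines. The upper row rose and the lower row fell in DBA/2J, parent values do not overlap, and the F1 mice lie in between, apart from Cyp3a13, where some reach the C57BL/6J values.

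Of the 12 genes fixed for a known or widely reported DNA difference between the strains, 6 were tested and 5 passed. Alad, delta-aminolevulinate dehydratase of heme synthesis, was at 122, 116 and 135 FPKM in C57BL/6J and at 405, 282 and 375 FPKM in DBA/2J, higher by 1.59 (SE 0.36, adjusted p = 0.00119). Glo1, the glyoxalase that detoxifies methylglyoxal, was at 102, 120 and 150 FPKM and at 289, 261 and 267 FPKM, higher by 1.23 (SE 0.31, adjusted p = 0.00402). Both genes had non-overlapping parents, a higher level in the DBA/2J male, and an F1 median between the parent means, 225 FPKM for Alad and 188 FPKM for Glo1. All 10 F1 mice lay between the parent means for Alad, and 8 for Glo1. For Glo1 the 640-day and 552-day B6D2F1 mice were at 92.4 and 97.0 FPKM, below every C57BL/6J mouse. Nnt, the mitochondrial transhydrogenase, was at 19.4, 13.1 and 18.4 FPKM in C57BL/6J and 33.9, 22.1 and 37.1 FPKM in DBA/2J, higher by 0.92 (adjusted p = 0.0172) and by 1.36 with the slope covariate (adjusted p = 1.71e-05). Without the covariate its adjusted p was 0.0885 without the 537-day C57BL/6J mouse and 0.0767 without the 764-day DBA/2J mouse. Ahr, the receptor for dioxins and other aryl compounds, of which DBA/2J carries the low-affinity form, changed by -1.09 (SE 0.27, adjusted p = 0.00405), and its adjusted p was 0.202 with the covariate. Gpnmb, in which DBA/2J has a premature stop, differed by -1.15 but missed the threshold (adjusted p = 0.0572). It was at 4.01, 0.592 and 0.122 FPKM in C57BL/6J and at 0.0849, 0.0103 and 0.0318 FPKM in DBA/2J.

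Fixed gene lists of liver functions were counted beside the 17.0% of all genes that passed and the median of all genes, 0.01 on the log2 scale. Of 51 P450 genes 7 were higher and 2 lower in DBA/2J (17.65% in all), with a median of 0.37. With the length slope as covariate 3 and 2 passed. Of 17 serpins, the serine protease inhibitors of plasma, 6 were higher (35.29%) and none lower, with a median of 0.99. With the covariate 3 were higher. Serpina11 was at 38.8, 52.0 and 72.6 FPKM in C57BL/6J and at 289, 526 and 143 FPKM in DBA/2J (higher by 2.50, SE 0.44, adjusted p = 1.36e-05). Serpina1a, an alpha-1-antitrypsin gene with near-identical copies, was higher by 1.25 (SE 0.28, adjusted p = 0.00113). Of 50 phase 2 conjugation genes 11 were higher (22%) and none lower, but only 1 passed with the covariate. Of 34 complement genes 2 were higher, C1s2 by 1.95 (SE 0.29) among them, and 4 lower (17.65% in all), and 1 and 2 passed with the covariate.

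Of 31 histocompatibility genes 8 were higher and 1 was lower in DBA/2J (29.03% in all), and 5 and 2 passed with the covariate. H2-T10 was at 2.54, 2.51 and 2.32 FPKM in C57BL/6J and at 20.8, 31.8 and 11.5 FPKM in DBA/2J, higher by 2.50 (SE 0.29, adjusted p = 9.22e-11). H2-K1, the classical class I gene, was the one that fell among the genes with a clear split, a change of -1.37 (SE 0.25), from 971 ± 57.8 FPKM (SD, n = 3) to 379 ± 71.1 FPKM. C57BL/6J and DBA/2J carry different H2 haplotypes, and reads from divergent alleles may map with unequal success to the reference, which was not tested. Of 52 interferon-stimulated genes 4 were higher and 2 lower (11.54% in all), below the 17.0% of all genes tested. With the covariate 3 and 1 passed, beside 3.46% of all genes. Xaf1, an interferon-induced regulator of apoptosis, was higher by 1.79 (SE 0.31) and Trim30d, a TRIM family gene, changed by -1.39 (SE 0.24).

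Genes of oxidative phosphorylation passed more often than all genes, at 37.1%, and ribosomal protein genes at 18.67%, near the 17.0% of all genes. Of 62 oxidative phosphorylation genes 23 were higher and none lower in DBA/2J, with a median of 0.84, and 1 and 1 passed with the covariate, with a median of 0.06. Of 75 ribosomal protein genes 13 were higher and 1 lower, with a median of 0.83, and 0 and 4 passed with the covariate, with a median of -0.11. Their median transcript lengths were 863 and 878 bases, against 2672 bases over all genes. Sdhb, a subunit of complex II, was at 92.3, 111 and 117 FPKM in C57BL/6J and at 280, 235 and 236 FPKM in DBA/2J, and its adjusted p was 0.00328 and 0.149 with the covariate. Rpl29 was the ribosomal protein gene that fell. It was at 169, 162 and 194 FPKM in C57BL/6J and at 101, 119 and 73.5 FPKM in DBA/2J, and it changed by -0.93 (SE 0.29, adjusted p = 0.0241) and by -1.61 with the covariate (adjusted p = 4.55e-10). Without the covariate its adjusted p was 0.0562 to 0.0828 when the 544-day or 182-day C57BL/6J mouse or the 764-day or 212-day DBA/2J mouse was left out.

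Genes of lipid, sugar and bile acid metabolism passed in small numbers, and most of these calls were lost with the covariate. Acaca, the acetyl-CoA carboxylase that starts fatty acid synthesis, and Lpin1 were the 2 of 22 lipogenesis genes (9.09%) that were lower. Their adjusted p were 0.119 and 0.314 with the covariate, and 0.0804 and 0.233 without the 549-day DBA/2J mouse. Of 17 clock genes and 2 natural killer receptor genes tested none passed limma's test, and at an unadjusted p under 0.05 there were 1 and 0. Coagulation, acute phase, cholesterol, bile acid, glucose, urea and apolipoprotein lists, of 22 to 34 genes tested, had 1 to 5 genes past the threshold each. These shares, 2.94% (urea) to 17.86% (apolipoprotein), were near or below the 17.0% of all genes. None passed with the covariate, where 3.46% of all genes did, so few would pass in lists of this size.

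Whether a parental difference was inherited was asked in the BXD mice. Their libraries do not enter the parent means, but they supply much of the spread and of the diet and age terms in the parent test. Strain means differed by limma's moderated F-test for 7359 genes, 55.5% of those tested, and for 1511 of the 2252 parent genes (67.1%). Among the 458 genes that passed with the length slope as covariate, 438 (95.63%) had such a strain difference. A stricter description placed each of 35 strains with at least 2 mice on the line between the parents, 0 at C57BL/6J and 1 at DBA/2J on the log2 scale. A clear split had at most 10% of strains between 1/3 and 2/3 and at least 20% on each side. Of the 668 genes, 89 (13.3%) met it, 52 higher and 37 lower in DBA/2J. The parent mice did not overlap for 88 of the 89, and for 638 of the 668 they were chosen from. Strain took a median of 89.45% of the variance of the 89 genes among BXD mice, against 41.2% over all genes. The 89 were chosen by the strain means of these same mice, so a high share follows from the rule. The share is not corrected for the number of strains, so it lies above 0 even without a strain effect. With the slope as covariate 85 of the 89 still passed the parent test. BXD48a, BXD65b and BXD73b count as strains beside BXD48, BXD65 and BXD73, to which they lay closest. They shared the side of the closest such mouse for 89.9%, 98.9% to 100% and 91.0% to 92.1% of the 89 genes. Without BXD48a, BXD65b and BXD73b, 6728 genes had a strain difference, 1268 parent genes had one, and 89 genes had a clear split. Of the 668 genes, 135 had under 10% of the strains on the DBA/2J side and 8 had under 10% on the C57BL/6J side. Ces1b, with 3 strains in the middle zone, was just inside the rule, and H2-T10, with 4, just outside it.

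Several of the largest parental differences divided the strains cleanly. Cyp2c39 had 25 strains on the C57BL/6J side and 10 on the DBA/2J side, with none in the middle zone. Ctse had 19 and 16, Eno1b 23 and 12 and Trim12a 22 and 13, also with none in the middle. Hc had 15 and 18 with 2 in the middle, and Aox3 16 and 18 with 1. Cebpe lay on the DBA/2J side in 26 of the 35 strains and on the C57BL/6J side in 8. Sult3a1, in contrast, had 13 strains on the C57BL/6J side, 12 on the DBA/2J side and 10 in the middle, and Cyp2a22 had 16, 9 and 10, so neither met the rule. Alad (12, 18 and 5 in the middle) and Glo1 (20, 11 and 4) came close, and Nnt, below the size limit of 1, had 19, 15 and 1. Nnt was on the DBA/2J side in BXD9, BXD24, BXD29 and BXD32, the strains numbered lowest, but not in BXD34, BXD39 or BXD40, numbered next. The other strains on its DBA/2J side ran from BXD44 to BXD99, and a link with strain number was not tested. Rpl29 was likewise below the size limit and had 20 and 15 strains with none in the middle.

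**Figure D3:**
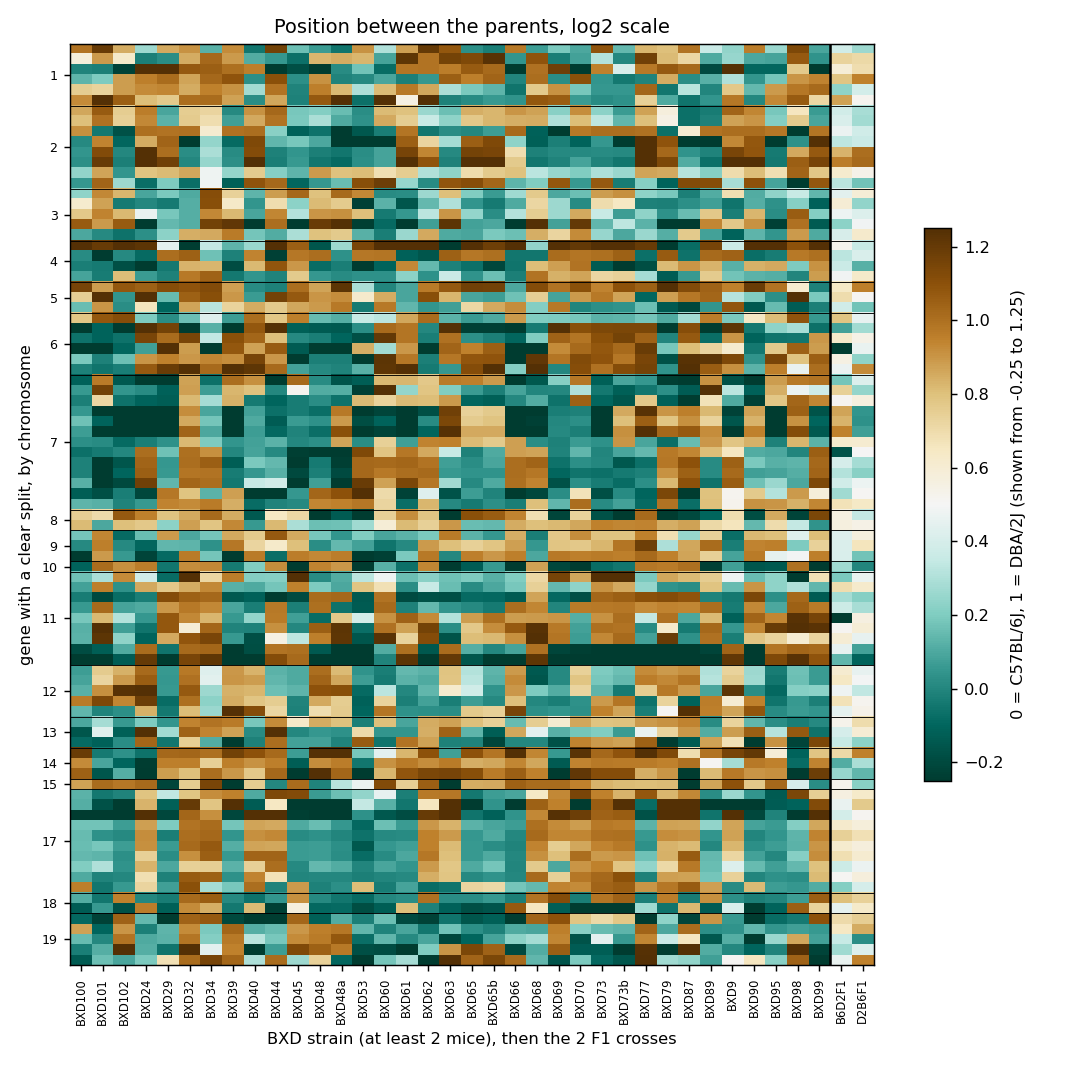
Position of each BXD strain and F1 cross (columns) between C57BL/6J (0) and DBA/2J (1) on the log2 scale for the 89 genes with a clear split (rows, by chromosome), shown in colour. Strains take one or the other end in blocks of neighbouring genes, whereas 51 of the 89 genes lie in the middle zone in B6D2F1 and 48 in D2B6F1. The BXD34 column includes the mouse that resembled DBA/2J.

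The genes with a clear split lay in 57 places when genes within 5 Mb were joined, 16 of them with at least 2 genes and 41 with 1 gene. The largest was at the H2 complex on chromosome 17, from 33996053 to 36190287, with 7 genes, 6 of them higher in DBA/2J, among them H2-Q2 and H2-T3, and H2-K1 lower. Chromosome 19 held Cyp2c39 and Elovl3, a fatty acid elongase, higher, and Cyp2c44 and Ankrd2 lower (39510862 to 46135307). Elovl3 had an adjusted p of 0.0462, and of 0.234 with the covariate, and differed by -0.02 between the males. Chromosome 7 held Folr2, Gm15135, Trim12a and Trim30d, all lower (101839990 to 104507849). Serpina11, Serpina3i and Gm28577 were all higher on chromosome 12. Mndal and Ifi202b, adjoining interferon-inducible genes on chromosome 1, went opposite ways, with changes of -2.15 (SE 0.30) and 2.56 (SE 0.49). Over all chromosomes 89 of 13256 genes tested had a clear split. The highest shares were on chromosome 17, with 10 of 679 tested (1.47%), 7 with 13 of 1011 (1.29%) and 12 with 5 of 428 (1.17%). Chromosomes 19 and 6 followed at 0.996% and 0.905%. Chromosome 11 held 9 of 1142 (0.788%), a share near those of chromosomes 1 (0.78%) and 2 (0.792%). Chromosomes 16 and X held 0 of 414 and 351 genes tested. These shares were not tested against each other.

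Genes close together put the same strains on the same side. Pairs within 1 Mb placed a median of 100% of the strains alike (80% to 100%, 30 pairs), pairs 1 to 10 Mb apart 91.43% (38 pairs), pairs 10 to 50 Mb apart 60% (116 pairs), and pairs on different chromosomes 51.43% (3649 pairs). Some of the closest pairs overlap or are near-identical and can share reads. Many of them are combinations of the 7 genes at the H2 complex, so the pairs are not independent observations.

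**Figure D4:**
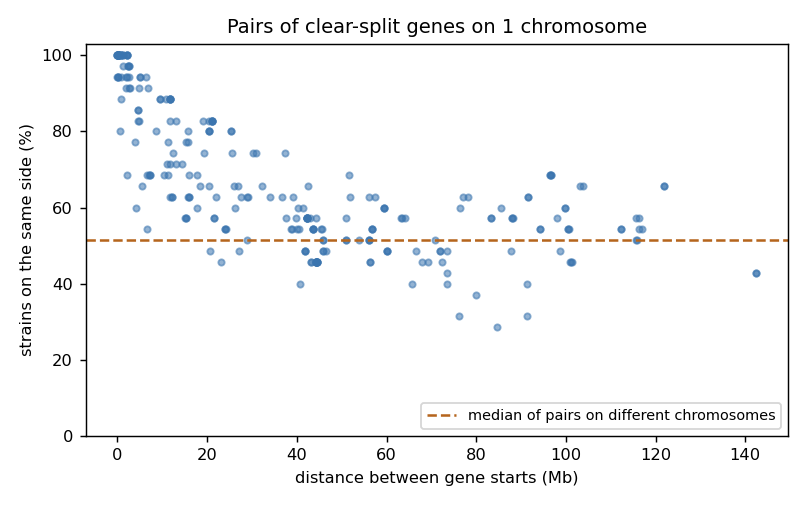
Share of BXD strains that lie on the same side (percent, vertical axis) for pairs of clear-split genes on 1 chromosome (points) against the distance between their starts (Mb), with the median of pairs on different chromosomes, 51.43%, as a dashed line. Pairs within 1 Mb lie at 80% or above, and pairs over 50 Mb apart have a median of 54.29%.

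The F1 hybrids were compared with the mid-parent, the mean of the 2 parent means on the log2 scale, which shares the parent libraries with the parent comparison. Only 4 of 13256 genes passed limma's test (0.0302%). At an unadjusted p under 0.05 there were 715, near the number that this cut gives without any departure. All 4 were above the mid-parent: Ctse by 1.50 (SE 0.30, adjusted p = 0.0143), Cyp2c39 by 1.20 (SE 0.25, adjusted p = 0.0322), Eno1b by 1.09 (SE 0.19, adjusted p = 0.00190) and Trim12a by 0.60 (SE 0.13, adjusted p = 0.0482). These calls depended on single parent mice. Trim12a missed the threshold without any 1 of the 6 (adjusted p 0.121 to 0.211), Eno1b without the 549-day DBA/2J mouse (0.110). Ctse (0.0585 to 0.148) and Cyp2c39 (0.152 to 0.191) missed it without the 544-day or 182-day C57BL/6J mouse and without the 764-day or 212-day DBA/2J mouse. The mid-parent of logs lies below the mean of the FPKM values. On the FPKM scale, with fitted values converted back, the F1 position was 0.41 for Cyp2c39, 0.49 for Eno1b, 0.45 for Trim12a and 0.66 for Ctse. Cyp2c39 ranged from 15.3 to 113 FPKM over the 10 hybrids with a median of 76.4 FPKM, and its 2 lowest values were in the 640-day and 552-day B6D2F1 mice.

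Over the 89 genes with a clear split the fitted F1 position had a median of 0.49 on the log2 scale and 0.42 on the FPKM scale. In all 89 it lay between the parents, in 53 (59.55%) in the middle zone, in 23 nearer C57BL/6J and in 13 nearer DBA/2J. Of the 668 genes of at least 1 log2 that they were chosen from, 661 also lay between the parents and 313 (46.86%) in the middle zone. All were chosen for a large difference between the same parent means, so a position between them largely follows from the choice. Without the 640-day and 552-day B6D2F1 mice the median was 0.48 with 52 genes in the middle zone. Over the 668 genes of at least 1 log2 the median was 0.33 on the log2 scale and 0.27 without those 2 mice, nearer C57BL/6J. Length slopes were -0.116 and -0.133 in those 2 mice and 0.0284 to 0.0585 in the other 8 hybrids.

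The reciprocal crosses were set against each other in a contrast added after the values were seen. It called 870 genes (6.56%), but 4 genes (0.0302%) without the 640-day and 552-day B6D2F1 mice. The 4 were the mitochondrial gene mt-Tg and Snrpn, Snurf and Gm38393, which overlap in 1 place on chromosome 7 (59974149 to 60005111). By convention the mother's strain is named first in a cross, and mitochondrial DNA comes from the mother. The mitochondrial glycine tRNA gene mt-Tg was at 28.5, 32.8 and 28.6 FPKM in C57BL/6J, at 3.69, 0 and 6.93 FPKM in DBA/2J, at 22.1 to 39.6 FPKM in the 6 B6D2F1 mice and at 0.643 to 4.34 FPKM in the 4 D2B6F1 mice. Each cross thus lay with the strain named first, without overlap, and the crosses differed by 3.42 (SE 0.64, adjusted p = 0.00122), and by 3.31 (adjusted p = 0.0291) without those 2 mice. The parent difference of mt-Tg was -3.19 (SE 0.81, adjusted p = 0.00510), and its adjusted p was 0.133 without the 549-day DBA/2J mouse, the one at 0. In 6 of 35 BXD strains, BXD32, BXD61, BXD89, BXD90, BXD95 and BXD99, mt-Tg lay on the DBA/2J side, and in 29 on the C57BL/6J side. A tRNA has no polyA tail of the usual kind and is short, so its level in polyA RNA is uncertain.

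Snrpn, which encodes a splicing protein and is imprinted, with expression from the father's copy, went the other way. It was at 5.30, 5.10 and 3.78 FPKM in C57BL/6J and at 22.4, 13.1 and 16.4 FPKM in DBA/2J, at 12.2 to 15.1 FPKM in B6D2F1 and at 4.15 to 5.70 FPKM in D2B6F1. Each cross lay with the strain named second, and the crosses differed by 1.30 (SE 0.19, adjusted p = 8.32e-06), and by 1.26 (adjusted p = 0.000485) without those 2 mice. Snurf, which overlaps Snrpn on chromosome 7 and can share its reads, differed by 1.26 (SE 0.24, adjusted p = 0.00175), and by 1.27 (adjusted p = 0.0291) without them. Snrpn lay on the DBA/2J side in 12 BXD strains and on the C57BL/6J side in 23, with none in the middle.

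**Figure D5:**
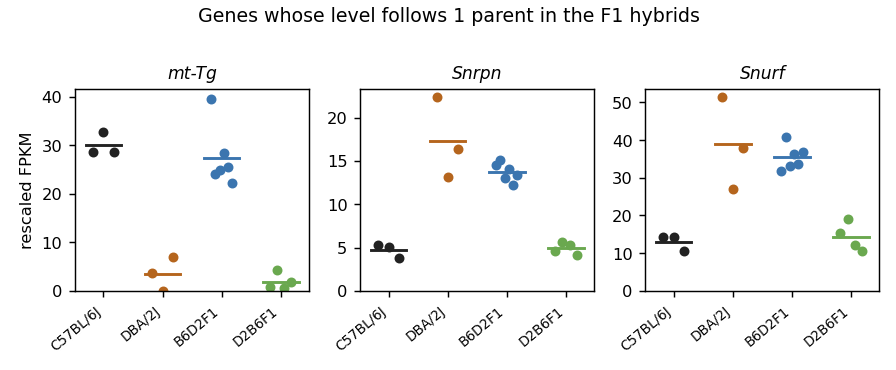
Rescaled FPKM (vertical axis, from 0) of mt-Tg, Snrpn and Snurf in each C57BL/6J, DBA/2J, B6D2F1 and D2B6F1 mouse (points), with group means as lines. For mt-Tg B6D2F1 lies with C57BL/6J and D2B6F1 with DBA/2J, and for Snrpn and Snurf the reverse.

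The 1 male of each strain gave a check in other mice, with no test. Between the males the difference had the same sign as in the females for 652 of the 2252 genes (28.95%), against 31.0% of all genes tested. It had the same sign for 86 of the 89 clear-split genes (96.63%) and for 400 of the 458 genes that passed with the slope covariate (87.34%). Hc was at 44.0 FPKM in the C57BL/6J male and 26.7 FPKM in the DBA/2J male, Cyp3a13 at 90.7 and 8.63 FPKM, and Ctse at 0.388 and 20.9 FPKM, all in the direction seen in the females. The low share over all genes went with the opposite length trend of the males described above, whose part in it was not tested.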

How the data were processed

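Liver polyA RNA was sequenced as paired ends, and the submitters' processing notes name STAR 2.6.0c and the build GRCm38 (mm10), whose sequence is that of C57BL/6J. The step that made the values is not given in the sources used here. The authors deposited FPKM for 43320 transcripts in 150 columns, and a log2 table whose values equal log2(FPKM + 1) within 0.0005. Per gene, 1 transcript was kept. FPKM were rescaled by median-of-ratios factors, and genes with a mean of at least 0.5 were tested with limma 3.58.1 in R 4.3.3 (trend, robust) on log2(rescaled FPKM + 1), with strain, diet and age as terms, over 141 libraries labelled female, with Benjamini-Hochberg adjustment. The parent contrast had 99 residual degrees of freedom. The scripts were tested on simulated data.

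The text names the 12 largest rises and falls among called genes, passing over Gm and Rik names, every tested gene of the list of known DNA differences, the 2 genes of smallest p of each other list and the 4 F1 departures. Other genes were named after seeing their values, and some genes are not reported here. The members and lists were chosen with earlier results of these data known. Library depth was 18330270 to 35274551 input reads. FPKM carry no counting interval here. The 7 columns repeating another were left out, as were the 2 males except where stated. Alternatives covered scaling, pseudocount, filters, covariates, batch terms and leaving out each mouse.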

Additional observations from a re-analysis of the deposited data

Results flagged for a closer look

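In 6 of 126 combinations of a named gene and an F1 cross, 1 mouse lay far from the others of its cross by Dixon's test, which flags about 1 group in 20 by chance. In B6D2F1, C1s2 was lowest at 2.42 FPKM in the 640-day CD mouse, mt-Tg was highest at 39.6 FPKM in the same mouse, and H2-Q2 was highest at 7.64 FPKM in the 552-day CD mouse. In D2B6F1, Gpnmb was highest at 0.607 FPKM in the 545-day CD mouse, Lpin1 at 13.0 FPKM in the 540-day HF mouse and Mup11 at 16.4 FPKM in the 210-day CD mouse.

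For 19 of 60 named genes that were called with non-overlapping parent females, the 1 DBA/2J male minus the 1 C57BL/6J male had the opposite sign, and this difference between sexes was not tested. The male differences on the log2 scale were AC125167.1 0.748, Abca1 1.43, Acaca 1.19, Acads -0.74, Ahr 0.668, Amacr -0.439, Apoa1 -0.247, Apol7d 3.24, Ces2g 0.894, Cox5a -1.15, Cth -2.48, F10 -0.0138, Hamp2 -0.119, Pcx 0.0918, Rpl14 -0.589, Sdhb -0.973, Sult3a1 -1.73, Tm7sf2 -0.47, Uros -0.844. None of these 19 genes is among the 89 with a clear split.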

How the results depend on the processing

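None of 67 results on single named genes changed sign under any alternative run, but the balance of higher and lower genes turned under several. Without rescaling the parent test gave 439 genes higher and 2407 lower in DBA/2J. The deposited log2 values gave 439 and 2408, and rescaling moved the median of all genes from -0.20 to 0.01. A pseudocount of 0.1 gave 12 F1 genes. A minimum of 5 FPKM gave 1175 parent genes (735 higher and 440 lower), 4049 strain genes and 795 in both. The 6 parent mice alone gave 264 (127 and 137), adding the 2 males 690 (428 and 262), and flow cell as a term 782 (407 and 375), of which 616 had a strain difference. Array weights, which did not converge, gave 6655 (3498 and 3157), 12864 strain genes, 6566 in both and 2584 F1 genes. A middle zone of 0.4 to 0.6 gave 148 clear splits, and a size of 2 gave 36. Some settings were added after seeing the data. The length slope gave 458 (241 and 217), 445 with a strain difference, and the male sign alike in 87.34% of calls against 28.95%. One library of each BXD set correlating over 0.99 gave 4715 strain genes and 946 in both. Leaving out the 2 older CD B6D2F1 mice, or 6 BXD libraries, moved no count by over 1.5 times, apart from the reciprocal cross counts in the report.

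Leaving out each parent mouse gave 603 to 3898 parent genes (317 to 1882 higher, 240 to 2016 lower) and 1 to 3 F1 genes. It was 808 without the 544-day C57BL/6J mouse, 603 without the 537-day one, 615 without the 549-day DBA/2J mouse and 3898 without the 212-day one. Of those 67, 24 missed the threshold with the length slope. With 3 mice of each parent, small differences were not detectable. The cause of these changes was not tested.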
